A study of Mus musculus with 6 samples.

Results

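The runt-related, distal-less and osteogenic transcription factors described here were 9 genes picked by name: *Runx1*, *Runx2*, *Runx3* and *Cbfb* (the RUNX DNA-binding subunits and their shared partner), *Sp7* (osterix), the homeobox genes *Dlx3*, *Dlx5* and *Dlx6*, and *Msx2*. Earlier results of these data were known when these genes were picked. They are 9 of the 54532 genes in the count table, and 8 of the 9 were among the 14801 genes with enough reads to be tested. *Dlx6* was the one left untested. RNA was sequenced from chondrogenic cells of 1-month-old Gli1-CreERT2; tdTomato mice (strain background c57BL/6) a day after tamoxifen, sorted into Gli1+ cells (CD45-CD31-Ter119-tdTomato+) and Gli1- cells (CD45-CD31-Ter119-tdTomato-), with 3 libraries of each. Both populations came out of the same animals, so the Gli1- cells carry both alleles and had the same tamoxifen. The Cre is driven by the *Gli1* locus, which means that tdTomato marks a cell that had *Gli1* activity when tamoxifen was given, and a Gli1- cell may be one in which recombination did not take place. The labels name the growth plate as the tissue, whereas the study's text speaks of rib cartilage. How many animals went into a library is not given in the sources used here.

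RUNX proteins bind DNA as a pair, one RUNX subunit with CBFB, which does not touch DNA itself and strengthens the binding. In cartilage RUNX2 drives the hypertrophic step of chondrocyte differentiation and, in the bone lineage, commitment to the osteoblast; RUNX1 is present in earlier skeletal progenitors and cartilage, and RUNX3 acts beside RUNX2 in chondrocyte maturation. SP7 is a zinc-finger factor needed downstream of RUNX2 for osteoblasts to form. DLX3, DLX5 and DLX6 and MSX2 are homeobox proteins of the BMP response that bind the same short AT-rich site, the DLX proteins mostly as activators and the MSX proteins as repressors. Cells of the blood also use *Runx1* and *Runx3*, which is why leukocyte markers are given beside them.

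The RUNX genes are known to have a distal and a proximal promoter and to carry RUNX sites of their own. The upstream promoters are shown because all 3 hold paired RUNX cores. A promoter is here 250 bases before to 50 bases after a start site in the RefSeq table for GRCm38.p6, which listed 5 of the 9 genes (*Runx1*, *Runx2*, *Runx3*, *Cbfb* and *Msx2*) with 7 promoters. The entries below run from chr16:92826025-92826324 (minus strand, the upstream one of 2 for *Runx1*), chr17:44814578-44814877 (minus strand, the single entry for *Runx2*) and chr4:135120395-135120694 (plus strand, the upstream one of 2 for *Runx3*). They are written 5′ to 3′, and capitals mark the RUNX core ACCACA, which was searched together with its reverse complement TGTGGT:
Runx1 upstream promoter: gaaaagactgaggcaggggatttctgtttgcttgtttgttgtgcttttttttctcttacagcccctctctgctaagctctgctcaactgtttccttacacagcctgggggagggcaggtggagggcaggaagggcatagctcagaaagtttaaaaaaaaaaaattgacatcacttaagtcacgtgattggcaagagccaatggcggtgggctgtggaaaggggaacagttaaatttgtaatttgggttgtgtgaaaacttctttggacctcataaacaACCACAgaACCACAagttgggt
Runx2 promoter: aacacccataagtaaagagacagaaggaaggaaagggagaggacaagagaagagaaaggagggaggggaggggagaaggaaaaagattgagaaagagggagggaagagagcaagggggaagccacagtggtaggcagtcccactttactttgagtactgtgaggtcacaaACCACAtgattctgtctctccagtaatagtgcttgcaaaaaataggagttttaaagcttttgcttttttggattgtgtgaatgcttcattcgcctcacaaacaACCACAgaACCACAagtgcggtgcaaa
Runx3 upstream promoter: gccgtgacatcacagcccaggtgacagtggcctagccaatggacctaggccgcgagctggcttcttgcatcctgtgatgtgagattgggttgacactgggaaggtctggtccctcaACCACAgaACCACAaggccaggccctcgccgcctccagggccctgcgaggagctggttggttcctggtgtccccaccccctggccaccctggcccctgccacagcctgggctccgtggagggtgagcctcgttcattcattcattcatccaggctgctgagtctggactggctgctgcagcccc

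The *Runx2* promoter holds 3 cores, which begin at bases -80, +24 and +32 from the start. The *Runx1* promoter holds 2, at +29 and +37, and the *Runx3* promoter 2, at -134 and -126. Over the 32851 mouse promoters of the table, 16.8% hold at least 1 core, 1.81% at least 2 and 0.183% at least 3. In each of the 3 genes a pair of cores lies within 1 shared stretch of 18 bases:
Stretch shared by Runx1, Runx2 and Runx3: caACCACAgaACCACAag
It was found in 4 of the 32851 promoters, and the fourth, *Gm16225*, overlaps the *Runx3* entry on the other strand. The stretch begins at +27 in *Runx1*, +22 in *Runx2* and -136 in *Runx3*. The downstream promoters of *Runx1* and *Runx3* and the promoters of *Cbfb* and *Msx2* hold 0 cores. With an A in front of the core (AACCACA or TGTGGTT), which 5.27% of promoters hold, the same 7 positions match. The homeobox core TAATT or AATTA, present in 27.0% of promoters, matched the *Msx2* promoter 3 times, of which the first 2 matches overlap, and the upstream *Runx1* promoter once. The GLI site GACCACCCA (or TGGGTGGTC), held by 0.253%, was in none of the 7. These are matches of letters and were not tested for binding. The counts are per gene, so they do not tell one promoter's transcripts from the other's.

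**Figure D1:**
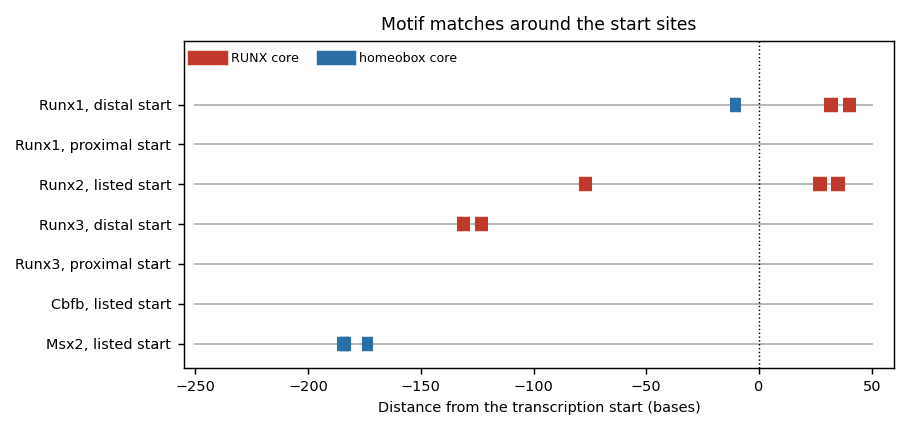
Matches to the RUNX core (red) and the homeobox core (blue) along the 7 RefSeq promoters of *Runx1*, *Runx2*, *Runx3*, *Cbfb* and *Msx2*; the horizontal axis is the distance from the start site in bases, from 250 before to 50 after it, and each line is 1 promoter. RUNX cores appear in pairs in the upstream *Runx1*, the *Runx2* and the upstream *Runx3* promoters, with 1 more core at -80 in *Runx2*, and in none of the other promoters drawn.

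Libraries held 17114101 to 18602482 counts in genes. Gli1+ replicate 1 had 15000 genes with at least 1 count, against 20666 to 23360 in the other 5 libraries. The gene behind the sort, *Gli1*, had 86, 104 and 152 counts in the Gli1+ replicates and 14, 19 and 46 in the Gli1- replicates, so no library went against its label (log2 fold change 2.09 ± 0.68 SE, unadjusted p = 0.0152 in edgeR's quasi-likelihood test). The 7 chondrocyte markers were present in every library, with summed levels of 7924 to 18354 CPM in Gli1+ and 5998 to 24124 CPM in Gli1- cells; CPM is the count as a share of the library, per 1000000 counts after scaling by the TMM method. Leukocyte transcripts, which the CD45 gate should remove, stood out in Gli1- replicate 1, where *Ptprc* (which encodes CD45) was at 54.7 CPM and the neutrophil gene *S100a8* at 1145 CPM, against at most 1.11 and 21.4 CPM in the other 5 libraries. In total RNA of a sorted population, fewer cells that express a gene and less of its RNA per cell cannot be told apart.

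Of the 8 factors tested, *Msx2* (unadjusted p = 0.0420, edgeR) was the only one under an unadjusted p of 0.05, and none passed the call of an adjusted p under 0.05 with a log2 fold change over 1 in size. Among all genes 0% (0 of 14801) were called by that test, 1.43% were higher and 2.04% lower at an unadjusted p under 0.05 (514 genes), and DESeq2 and limma-voom on the same libraries called 30 and 0 genes, none of them a factor described here. Under an unadjusted p of 0.05, DESeq2 had *Runx1* (0.0404), *Sp7* (0.0358) and *Msx2* (0.0166), among 717 of all genes. Limma-voom had *Runx1* (0.0470) and *Sp7* (0.0318) but not *Msx2* (0.0950), among 472 of all genes. Which factors fell under 0.05 thus depended on the tool. Log2 fold changes (Gli1+ over Gli1-) were above 0 for 7 factors and below 0 for *Runx1*, with a median of 0.84 against 0.0013 over all genes tested. The libraries of the 2 populations did not overlap for *Sp7*, higher in Gli1+ cells, and for *Runx1*, lower. Over all genes 4.04% had every Gli1+ library above every Gli1- library and 4.45% had every one below. Within pairs of the same replicate number, *Runx2*, *Runx3*, *Cbfb*, *Sp7* and *Msx2* were higher in Gli1+ cells in 3 of 3 pairs and *Runx1* was lower in 3 of 3, where 17.6% of all genes were higher and 19.8% lower in 3 of 3. With the replicate number as a block in edgeR, 4 of the 8 (*Runx1*, *Runx3*, *Sp7* and *Msx2*) had an unadjusted p under 0.05, against 8.61% of all genes, and again none was called.

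**Figure D2:**
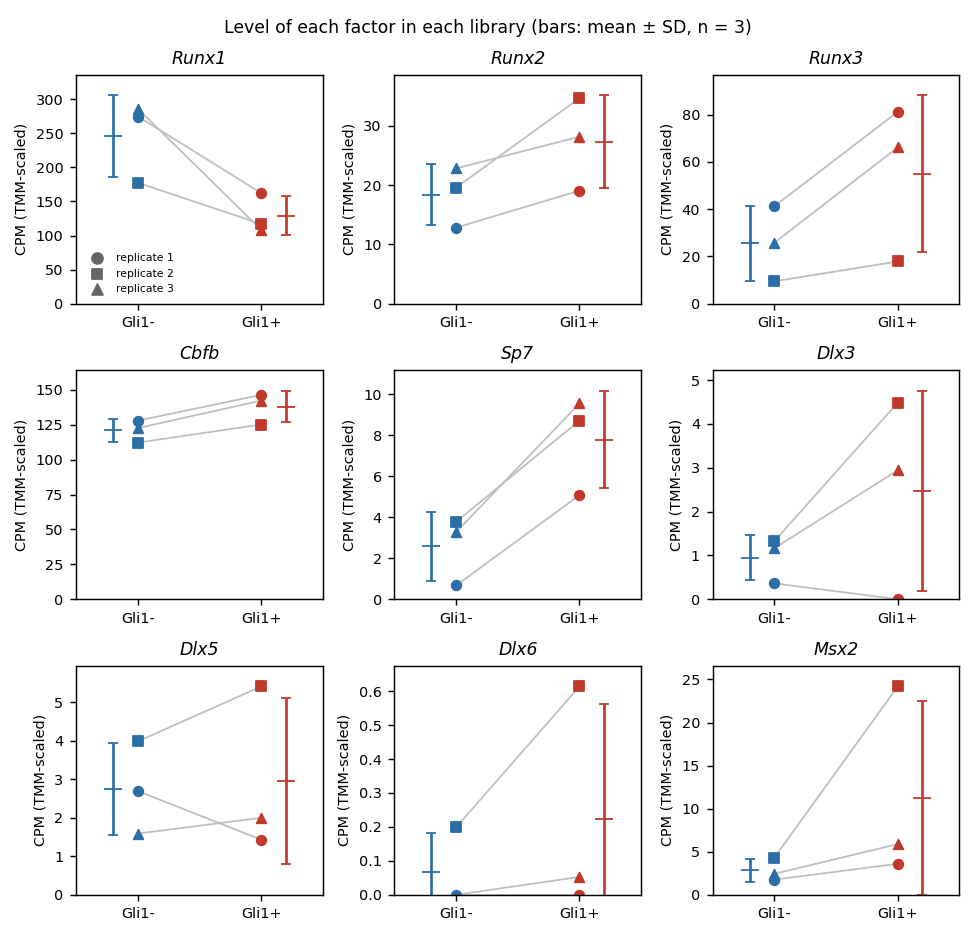
CPM of the 9 factors in each library (vertical axes start at 0 and differ between panels; markers give the replicate number, grey lines join libraries of the same number, bars give the mean ± SD of 3 libraries, cut off at 0). *Runx1* (108 to 162 CPM in Gli1+, 177 to 286 CPM in Gli1-) and *Sp7* (5.08 to 9.56 against 0.672 to 3.78 CPM) are the 2 tested factors whose populations do not overlap.

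Per kilobase of annotated exon, the order of the mean levels over all 6 libraries was *Cbfb* (37.2 CPM per kb), *Runx1* (15.6), *Runx3* (8.05), *Runx2* (2.58), *Msx2* (2.14), *Sp7* (1.52), *Dlx5* (1.26), *Dlx3* (0.657) and *Dlx6* (0.0607). *Cbfb*, between 32.2 and 42.1 CPM per kb, lay above every other factor in every library. This order pools the populations and does not hold in each of them: the mean of *Msx2* (3.42) was above that of *Runx2* (3.09) in Gli1+ cells, and the mean of *Dlx5* (1.22) was above those of *Msx2* (0.864) and *Sp7* (0.758) in Gli1- cells. In Gli1+ cells *Runx1* and *Runx3* averaged 10.7 ± 2.42 and 11.0 ± 6.61 CPM per kb (SD, n = 3), which their spread does not separate, while in Gli1- cells they averaged 20.5 ± 4.96 and 5.10 ± 3.17. Without the division by length, *Runx1* and *Runx3* averaged 129 and 55.1 CPM in Gli1+ cells. Among the low factors, *Runx2*, *Msx2*, *Sp7* and *Dlx5*, the libraries of neighbours in this order overlapped in Gli1+ cells.

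*Runx1* (ENSMUSG00000022952, chromosome 16, 92601466 to 92826149, minus strand, mm10) was the most abundant of the DNA-binding RUNX subunits in Gli1- cells. It stood at 162, 117 and 108 CPM in Gli1+ replicates 1, 2 and 3, and at 275, 177 and 286 CPM in Gli1- replicates 1, 2 and 3. All 3 Gli1+ libraries were below all 3 Gli1- libraries, although Gli1+ replicate 1 and Gli1- replicate 2 lay close to each other. The means were 129 ± 29.0 and 246 ± 59.6 CPM (SD, n = 3), for a log2 fold change of -0.93 ± 0.41 (SE; 95% interval -1.87 to 0.010; unadjusted p = 0.0520, adjusted p = 0.9999, edgeR). An exact 2-sided permutation test of the CPM gave p = 0.1, the smallest that 3 against 3 libraries allow. Of the 2 highest *Runx1* libraries, one (Gli1- replicate 1, 275 CPM) held the leukocyte transcripts, with a sum of 404 CPM over the 4 pan-leukocyte markers, and the other (Gli1- replicate 3, 286 CPM) had a sum of 2.22 CPM. Without Gli1- replicate 1 the log2 fold change was -0.85.

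*Runx2* (ENSMUSG00000039153, chromosome 17, 44495987 to 44814797, minus strand) had 19.05, 34.6 and 28.1 CPM in the Gli1+ replicates and 12.8, 19.6 and 22.8 CPM in the Gli1- replicates. Each Gli1+ library was above the Gli1- library of its number (1.49, 1.77 and 1.23 times), but Gli1+ replicate 1 fell below 2 of the Gli1- libraries. The log2 fold change was 0.57 ± 0.44 (SE; 95% interval -0.44 to 1.57; unadjusted p = 0.230, edgeR) between means of 27.3 ± 7.83 and 18.4 ± 5.09 CPM (SD, n = 3). Its antisense neighbour *Runx2os1* shares 519 exonic bases (5.87% of the exonic length of *Runx2*) and held 2 to 41 counts per library against 248 to 564 for *Runx2*. The use of strand in counting is not given in the sources used here. For *Runx1*, the antisense gene *Gm26626* shares 106 bases and held 0 to 31 counts. *Supt3*, *Runx2os2*, *Runx2os3* and *n-R5s27* overlap the *Runx2* locus without sharing exonic bases.

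*Runx3* (ENSMUSG00000070691, chromosome 4, 135120652 to 135177990, plus strand) varied widely within each population. Its levels were 81.2, 17.9 and 66.1 CPM in the Gli1+ replicates and 41.2, 9.48 and 25.8 CPM in the Gli1- replicates, so that both libraries numbered 2 were the lowest of their population. The ratio within pairs was 1.97, 1.88 and 2.56. Taken as independent libraries the means were 55.1 ± 33.1 and 25.5 ± 15.9 CPM (SD, n = 3) and the log2 fold change 1.11 ± 0.70 (SE; 95% interval -0.49 to 2.71; unadjusted p = 0.149, edgeR). With the replicate number as a block, the SE was 0.26 around a log2 fold change of 1.08 (adjusted p = 0.395, edgeR). DESeq2 with the same block called *Runx3* higher (1.07 ± 0.34 SE, adjusted p = 0.0486; 0.777% of all genes were called higher and 2.11% lower by that fit), and it was the 1 factor of the 8 that it called. Over all settings the adjusted p of *Runx3* ranged from 1.97e-05 to 1.00. The lowest value came from edgeR with the replicate block and both libraries numbered 1 left out, a fit of 2 pairs. The leukocyte transcripts were highest in Gli1- replicate 1, the Gli1- library with the most *Runx3*, and without it the log2 fold change was 1.63. Without Gli1- replicate 2 it was 0.67 and without Gli1+ replicate 1 it was 0.69. *Gm16224*, an antisense gene at the locus that shares no exonic bases with *Runx3*, had at most 1 count in any library.

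*Cbfb* (ENSMUSG00000031885, chromosome 8, 105170674 to 105217989, plus strand), the common partner, was the steadiest of the factors. It had 146, 125 and 142 CPM in the Gli1+ replicates and 128, 112 and 123 CPM in the Gli1- replicates. The pair ratios were 1.14, 1.12 and 1.16, and the populations overlapped because Gli1- replicate 1 was above Gli1+ replicate 2. The log2 fold change of 0.19 had a 95% interval of -0.61 to 1.00 (unadjusted p = 0.601, edgeR). *Gm22063* and *Gm24629*, small RNA genes within the *Cbfb* locus, share no exonic bases with it and had at most 2 counts.

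*Runx1* held a smaller share of the RUNX transcripts in every Gli1+ library than in any Gli1- library. On the per-kilobase scale *Runx1* made up 42.3%, 56.5% and 35.4% of the summed *Runx1*, *Runx2* and *Runx3* level in the Gli1+ replicates and 70.2%, 78.2% and 75.4% in the Gli1- replicates. *Runx3* made up 50.9%, 20.8% and 52.0% against 25.3%, 10.05% and 16.4%, and *Runx2* 6.76%, 22.8% and 12.5% against 4.46%, 11.7% and 8.19%. For both the populations overlapped, with Gli1+ cells higher in 3 of 3 pairs. The shares depend on the exonic length used, 12025 bases for *Runx1* and 5003 for *Runx3*, and the transcript forms present are not known. In raw counts *Runx1* was above *Runx3* in every library (3068, 1903 and 2062 against 1535, 291 and 1259 in the Gli1+ replicates). The summed RUNX level itself was 24.8 ± 7.36 CPM per kb in Gli1+ and 27.6 ± 7.61 in Gli1- cells (SD, n = 3). The ratio of *Cbfb* to the RUNX sum was 1.67 ± 0.389 and 1.32 ± 0.338.

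A ratio of 2 genes of one library does not depend on how the libraries are scaled. *Runx2* over *Runx1* was 0.160, 0.403 and 0.354 in the Gli1+ replicates and 0.0636, 0.150 and 0.109 in the Gli1- replicates (per kilobase). The Gli1+ libraries all lay above the Gli1- libraries, although Gli1+ replicate 1 and Gli1- replicate 2 were close. The geometric means differed by 2.80 times (1.49 on the log2 scale; exact 2-sided permutation test, p = 0.1, the smallest possible here). *Runx3* over *Runx1* was 1.20, 0.368 and 1.47 against 0.361, 0.128 and 0.217, again without overlap, the closest libraries being Gli1+ replicate 2 and Gli1- replicate 1.

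**Figure D3:**
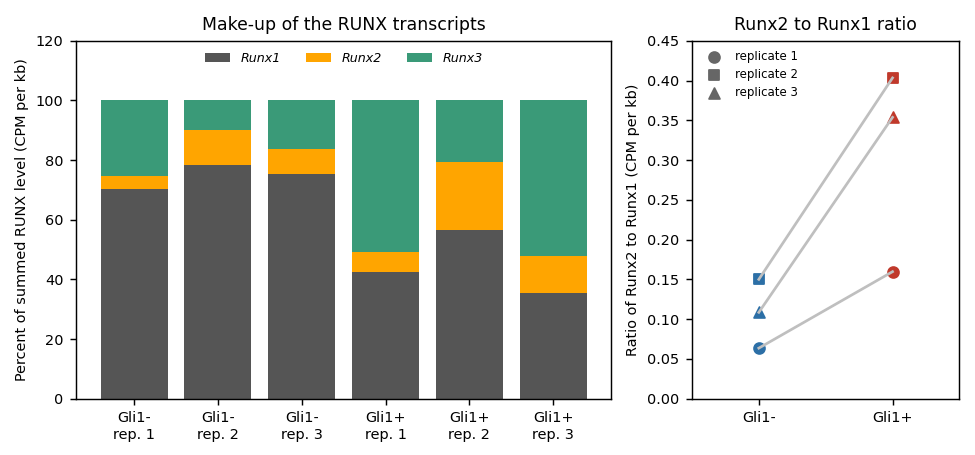
Left, percent of the summed *Runx1*, *Runx2* and *Runx3* level (CPM per kb) held by each gene in each of the 6 libraries; right, the ratio of *Runx2* to *Runx1* by population, with grey lines joining the same replicate number. *Runx1* holds 70.2% to 78.2% in the Gli1- libraries and 35.4% to 56.5% in the Gli1+ libraries, and the *Runx2* to *Runx1* ratio spans 0.0636 to 0.150 and 0.160 to 0.403.

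*Sp7* (ENSMUSG00000060284, chromosome 15, 102356606 to 102367182, minus strand) was low in both populations. It had 96, 142 and 182 counts in the Gli1+ replicates (5.08, 8.72 and 9.56 CPM) and 13, 57 and 62 counts in the Gli1- replicates (0.672, 3.78 and 3.28 CPM). All Gli1+ libraries were above all Gli1- libraries, by 7.56, 2.31 and 2.91 times within the pairs. The log2 fold change was 1.59 ± 0.74 (SE; 95% interval -0.10 to 3.29; unadjusted p = 0.0621, adjusted p = 0.9999, edgeR), with means of 7.79 ± 2.38 and 2.58 ± 1.67 CPM (SD, n = 3). The exact permutation p was 0.1, again the smallest possible. Of the osteoblast markers, *Ibsp* (bone sialoprotein) was at 7.56 to 35.2 CPM in Gli1+ and 15.6 to 44.2 CPM in Gli1- cells, while *Bglap* and *Bglap2* (osteocalcin, near-identical copies whose reads may be split between them), *Dmp1*, *Ifitm5* and *Phex* stayed under 4 CPM in every library.

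Among the homeobox factors, *Msx2* (ENSMUSG00000021469, chromosome 13, 53466884 to 53473074, minus strand) had the only log2 fold change of the 8 whose interval left out 0 in the main edgeR fit. Its levels were 3.60, 24.2 and 5.88 CPM in the Gli1+ replicates and 1.76, 4.31 and 2.43 CPM in the Gli1- replicates. Gli1+ replicate 2 was far above the other 5 libraries, and Gli1+ replicate 1 was below Gli1- replicate 2, so the populations overlapped. The log2 fold change was 1.98 ± 0.82 (SE; 95% interval 0.092 to 3.88; unadjusted p = 0.0420, adjusted p = 0.9999, edgeR), and it was 0.73 without Gli1+ replicate 2. The value was above that of *Sp7* (1.59) here but below it with the replicate block in edgeR (1.60 against 1.85). Each Gli1+ library was nevertheless above its own pair, by 2.05, 5.61 and 2.42 times. Its relative *Msx1*, which had a log2 fold change of -0.70 ± 0.78 (SE), stood at 0.635, 5.22 and 2.99 CPM in the Gli1+ replicates and 4.76, 5.04 and 4.55 CPM in the Gli1- replicates.

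*Dlx3* (ENSMUSG00000001510, chromosome 11, 95120119 to 95125296, plus strand) had 0, 73 and 56 counts in the Gli1+ replicates and 7, 20 and 22 in the Gli1- replicates. The 0 in Gli1+ replicate 1, the library with the fewest genes detected, allows a level of up to 0.159 CPM (3 counts), for counting error only. The other 2 Gli1+ libraries, at 4.48 and 2.94 CPM, were above all Gli1- libraries (0.362, 1.33 and 1.16 CPM). The log2 fold change was 1.38 ± 1.42 (SE; 95% interval -1.89 to 4.64; unadjusted p = 0.361, edgeR), 1.95 without Gli1+ replicate 1, 0.63 without Gli1+ replicate 2, and 0.48 with the replicate block.

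*Dlx5* (ENSMUSG00000029755, chromosome 6, 6877805 to 6882085, minus strand), which lies beside *Dlx6* in a convergent gene pair, was at 1.43, 5.40 and 1.996 CPM in the Gli1+ replicates and 2.69, 3.98 and 1.59 CPM in the Gli1- replicates. The libraries numbered 2 were the highest of both populations, and no order of the populations was seen (log2 fold change 0.096, 95% interval -1.65 to 1.84, unadjusted p = 0.902, edgeR). *Dlx6* (ENSMUSG00000029754, 6863334 to 6868568, plus strand) had 0, 10 and 1 counts in the Gli1+ replicates and 0, 3 and 0 in the Gli1- replicates. Its level was at or near the floor of 3 counts in 5 of the 6 libraries, so no fold change is given. Its antisense neighbours had few reads too: *Dlx6os2*, which shares 104 exonic bases with *Dlx6*, had 0 counts throughout and *Dlx6os1* at most 6. The remaining genes of the family, *Dlx1*, *Dlx2* and *Dlx4*, were under 1 CPM in every library and were not tested.

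**Figure D4:**
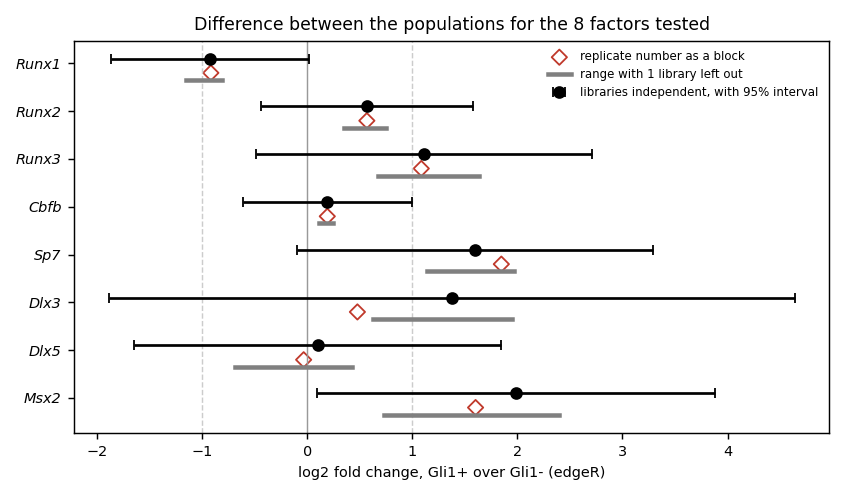
Log2 fold change of the 8 factors tested (horizontal axis, Gli1+ over Gli1-; black points with 95% intervals from edgeR with the libraries taken as independent; open diamonds with the replicate number as a block; grey bars the range of the 6 fits that leave out 1 library; dashed lines mark a log2 fold change of 1 in either direction). Only the interval of *Msx2* (0.092 to 3.88) leaves out 0, and the interval of *Runx1* ends at 0.010.

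Partners that RUNX proteins bind did not go one way. Of 8 activating partners tested 4 had a log2 fold change above 0 and 4 below, with a median of -0.08, and none had an unadjusted p under 0.05 in edgeR with the libraries taken as independent (with the replicate block 1 had, *Wwtr1*, at 0.0378). The 4 with the highest level per kilobase were *Atf4*, *Wwtr1* (which encodes the YAP partner TAZ), *Mef2d* and the acetyltransferase *Kat6a*, with log2 fold changes of -0.29, -0.82, -0.69 and 0.38. Of 20 genes for proteins that restrain RUNX2 or its level, 14 were below 0 and 6 above, with a median of -0.24. The 4 with the highest level were *Sox9* (-0.54), the chondrocyte master factor; *Smurf1* (-0.21), a ubiquitin ligase; *Yap1* (-0.26); and *Hdac3* (0.15), a histone deacetylase. *Nkx3-2*, a homeobox repressor of *Runx2* in immature chondrocytes, was the only 1 of the 20 with an unadjusted p under 0.05 when libraries were taken as independent (log2 fold change 2.07 ± 0.90 SE, unadjusted p = 0.0493, edgeR), at 1.11, 3.07 and 1.47 CPM in the Gli1+ replicates and 0.207, 0.597 and 0.529 CPM in the Gli1- replicates. *Hdac5*, a class II deacetylase, was lower in every Gli1+ library, at 31.8, 95.7 and 47.6 CPM against 101, 142 and 117 CPM (log2 fold change -1.04 ± 0.49 SE, unadjusted p = 0.0643, edgeR), while the blocked DESeq2 fit called it lower (-1.19 ± 0.37 SE, adjusted p = 0.0404, with a range of 0.000159 to 1.00 over all settings). With the block in edgeR, *Nkx3-2*, *Hdac5* and *Twist1*, a basic helix-loop-helix repressor (log2 fold change -1.45), had an unadjusted p under 0.05 (0.0399, 0.0110 and 0.0360). Among all genes 8.61% were under 0.05 with the block, and 1.43% were higher and 2.04% lower without it. Whether the repressors depart from these shares was not tested. These 3 genes were named after their values were seen.

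The genes on which RUNX2, RUNX3 and SP7 are known to act did not go one way either. *Mmp13*, the collagenase of late hypertrophic cartilage and a textbook RUNX2 target, was at 5328, 2861 and 4859 CPM in the Gli1+ replicates and 457, 592 and 607 CPM in the Gli1- replicates. The populations were far apart, with a log2 fold change of 2.98 ± 0.54 (SE; unadjusted p = 0.000527, adjusted p = 0.9999, edgeR). *Col10a1*, the collagen of hypertrophic chondrocytes and likewise a RUNX2 target, was at 34.6, 285 and 71.9 CPM in the Gli1+ replicates and 161, 1781 and 210 CPM in the Gli1- replicates. Each Gli1+ library was below its pair, while Gli1+ replicate 2 was above 2 of the Gli1- libraries, and the log2 fold change was -2.46 ± 1.13 (SE; unadjusted p = 0.0612, edgeR), or -0.53 without Gli1- replicate 2. DESeq2 with the replicate block called *Mmp13* higher and *Col10a1* lower. Without the block DESeq2 also called *Mmp13* higher (2.97 ± 0.46 SE, adjusted p = 1.14e-06), and it gave no p-value for *Col10a1*.

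Over the 8 hypertrophic genes tested, 4 were above 0 and 4 below, with a median log2 fold change of 0.18. *Spp1* (osteopontin) had a log2 fold change of -0.54 ± 0.79 and *Vegfa*, the angiogenic factor of hypertrophic cartilage, one of 0.47 ± 0.53 (SE). *Panx3*, a channel gene of prehypertrophic chondrocytes named after its values were seen, was the other hypertrophic gene without overlap, at 1.48, 1.96 and 1.42 CPM against 0.259, 0.928 and 0.635 CPM (log2 fold change 1.41, unadjusted p = 0.135, edgeR). Of the 12 bone matrix genes only 5 had enough reads to be tested. All 5 had a log2 fold change below 0, with a median of -0.54. None was under an unadjusted p of 0.05 in edgeR with the libraries taken as independent (with the replicate block 1 was, *Col1a2*, at 0.0236, against 8.61% of all genes). Each of the 5 changed sign in at least 1 fit that left out 1 library, so their shared direction was not stable. *Col1a1* and *Col1a2*, the chains of bone and fibroblast collagen I, had log2 fold changes of -0.89 ± 1.16 and -1.50 ± 1.15 (SE), with *Col1a2* at 1887 CPM in Gli1- replicate 2 and between 33.8 and 495 CPM in the other 5 libraries. The 6 markers of fibroblasts and perichondrium, of which *Col1a1* is also a bone matrix gene, summed to 1613 to 3386 CPM in Gli1+ and 1779 to 7711 CPM in Gli1- cells. All 6 had a log2 fold change below 0, with a median of -1.39. With 1 library left out *Col1a1*, *Dcn* (-0.79 to 0.44) and *Postn* (-2.09 to 1.22) changed sign, while *Col3a1*, *Pdgfra* and *Ly6a* did not. DESeq2 with the replicate block called 3 of the 6 lower (*Col3a1*, *Pdgfra* and *Ly6a*, named after their values were seen), where 2.11% of all genes were called lower. Without the block DESeq2 called only *Pdgfra* of the 6 (-1.98 ± 0.51 SE, adjusted p = 0.0450). *Pdgfra*, a receptor of mesenchymal progenitors and fibroblasts, was at 85.4, 82.0 and 43.1 CPM in the Gli1+ replicates and 206, 355 and 264 CPM in the Gli1- replicates, without overlap (log2 fold change -1.97 ± 0.46 SE, unadjusted p = 0.00249, adjusted p = 0.9999, edgeR). The part of these markers in the lower bone matrix values, and in the lower *Runx1*, was not tested.

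**Figure D5:**
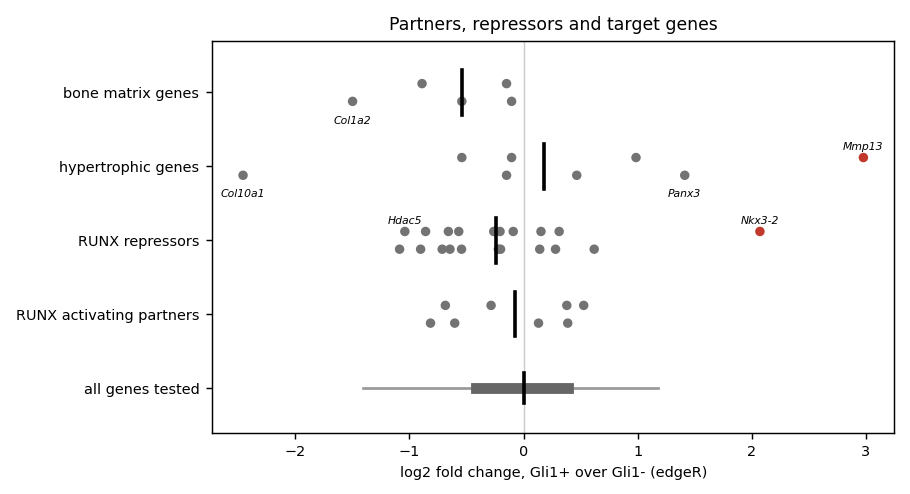
Log2 fold change (horizontal axis, Gli1+ over Gli1-, edgeR) of each tested gene of 4 lists, 1 point a gene, with red points for an unadjusted p under 0.05 and black ticks for the medians; the lowest line gives the median, the middle 50% and the middle 90% of all 14801 genes tested. *Mmp13* (2.98) and *Col10a1* (-2.46), both hypertrophic genes, lie at opposite ends, and all 5 bone matrix points lie below 0. Each of these 5 genes changed sign in at least 1 fit that left out 1 library.

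The genes whose profile over the 6 libraries was most like that of a factor were looked up among 12871 tested protein-coding genes by the root mean square difference of centred log2 CPM, where 0 is an identical profile. For *Runx1* they were *Sash1* (0.124), *Bcr* (0.126) and *Nuak1* (0.146), against a median of 0.869 over all genes. For *Runx2* they were *Kdsr* (0.101), *1700030J22Rik* (0.107) and *Zfp456* (0.119), against a median of 0.808. *Sp7* had no profile as close. Its nearest were *Mmp12* (0.351), *4930503L19Rik* (0.369) and *Cenpn* (0.383), with a median of 1.39, while *Runx2* ranked 221 and *Msx2* 282 among all genes by their likeness to *Sp7*. These are descriptions of 6 libraries that share their depth and pairing.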

How the data were processed

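Sorted Gli1+ and Gli1- cells gave 3 RNA-seq libraries each. Raw counts were deposited as 1 table (whole reads per gene and library), with gene lengths and coordinates and without normalization or pooling. Per the submitters' processing notes HISAT2 2.0.5, featureCounts 1.5.0-p3 and mm10 were used; the annotation and the use of strand are not given in the sources used here. Of the 54532 genes, 54409 were found in GENCODE M21. There were 0 unmatched columns.

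Genes were kept with edgeR's filterByExpr (minimum count 10) and libraries scaled by TMM, which left 14801 genes for edgeR's quasi-likelihood test (edgeR 4.0.16, R 4.3.3). P-values were adjusted over all genes by the Benjamini-Hochberg method. A call needed an adjusted p under 0.05 and a log2 fold change over 1 in size. The standard errors follow from the fold change and its F value, and the 95% intervals from the matching t distribution. The script was tested on simulated data. Alternatives were other scalings and filters, DESeq2 1.42.0, limma-voom (limma 3.58.1), the replicate block and leaving out libraries. CPM per kb divides by the exonic length in the table. A floor of 3 counts was used.

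The factors and gene lists were chosen with earlier results of these data known. Named were all 9 factors, *Gli1*, of each list the 4 genes and of each marker list at most 2 genes with the highest level per kilobase, the 3 nearest profiles of *Runx1*, *Runx2* and *Sp7*, and genes overlapping a factor. Other genes were named after their values were seen.

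Per the study's text, Gli1+ and Gli1- cells were sorted from the same animals. As a check of the pairing, each library's deviation from the mean of its population was compared across genes. Libraries 1, 2 and 3 correlated with their own number at 0.223, 0.720 and 0.471, all above 0.1. The numbers were taken as pairs in the pair ratios and in the fits with the replicate block. The main edgeR fit, with its intervals and p-values, took the libraries as independent and ignored the pairs. Between unlike numbers, Gli1+ replicate 1 and Gli1- replicate 3 correlated at 0.274, above the 0.223 of the libraries numbered 1, so the check does not single out that pair. Gli1+ replicate 3 and Gli1- replicate 1 correlated at 0.107, so a limit of 0.1 does not separate like from unlike numbers. The remaining unlike numbers correlated below 0 (-0.616 to -0.318). Nothing says that the libraries came from separate animals beyond their being called biological replicates, so p-values measure the spread between these libraries.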

Additional observations from a re-analysis of the deposited data

How the results depend on the processing

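The log2 fold changes of the 8 factors kept their direction in all 17 alternatives apart from *Dlx3* and *Dlx5*. *Dlx3* was -0.32 with limma-voom. *Dlx5* was -0.052 with limma-voom, -0.036 with the replicate block in edgeR, -0.048 with the block in DESeq2, and -0.69 to 0.43 with 1 library left out. Among other genes, *Atf4* (-1.09 to 0.16), *Kat6a* (-0.37 to 0.83) and *Vegfa* (-0.072 to 0.75) changed sign with 1 library left out. So did the bone matrix genes *Spp1* (-1.45 to 0.22), *Ibsp* (-0.62 to 0.49), *Alpl* (-0.49 to 0.45), *Col1a1* (-1.41 to 0.40) and *Col1a2* (-2.23 to 0.18). The same held for *Dcn* (-0.79 to 0.44), *Postn* (-2.09 to 1.22) and *S100a8* (-6.15 to 0.63). More genes of the lists did so too.

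The count of genes called was 0 in edgeR, 267 without the filter on low counts, 30 with DESeq2, 428 with the replicate block in DESeq2 (1 factor, *Runx3*), and 0 with the block in edgeR, where no call of a factor changed. With both libraries numbered 1 left out and the replicate block in edgeR, 1201 of 15331 genes tested were called. They included 5 of the 8 factors (*Runx1*, *Runx3*, *Sp7*, *Dlx3* and *Msx2*). The log2 fold changes of *Atf4* and *Kat6a* were 0.0056 and -0.24 there. That fit rests on 2 pairs, and the cause of its larger count was not tested. With 1 library left out 0 genes were called. The log2 ratio of *Runx2* to *Runx1* (1.49) could not pass 0.05 in 3 against 3 libraries.

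Depth limits *Dlx6* and *Dlx3*, with at most 10 and 73 counts. In the main edgeR fit the intervals of *Runx2*, *Runx3*, *Sp7*, *Dlx3* and *Dlx5* span log2 fold changes from below 0 to above 1. That fit, which ignores the pairs, neither showed nor excluded differences of that size. The same holds in that fit for a lower *Runx1*, whose interval (-1.87 to 0.010) runs from below -1 to above 0. With the replicate block in edgeR the SEs of *Runx1*, *Runx3* and *Sp7* were 0.28, 0.26 and 0.52 (unadjusted p = 0.0201, 0.00761 and 0.0139). *Runx2*, *Dlx3* and *Dlx5* stayed above an unadjusted p of 0.05 with the block, and none of the factors was called.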
